A study of Mus musculus with 19 samples.

Results

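Of 19 perfused mouse hearts, each read on 1 array, 9 had almost no transcript of Bmp10, and these 9 fell into hearts with high and hearts with low Myl7, an atrial muscle transcript. The 9 arrays were chosen by a log2 value of Bmp10 below 6.5. They were then divided by Myl7: 5 arrays at 6.5 or more are called keeping arrays, and 4 arrays below 6.5 are called lacking arrays. The names refer to Myl7 and not to all atrial transcripts, several of which were well measured in both classes. The other 10 arrays are called Bmp10-high. The measured values of Bmp10 and Myl7 thus made these classes, which are not groups of the study, and neither gene was tested.

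The keeping arrays were WT ZT0 replicate 1, WT ZT12 replicates 3, 4 and 6 and KO ZT12 replicate 3. The lacking arrays were WT ZT12 replicate 5 and KO ZT12 replicates 2, 4 and 5. Genotype and class were therefore unevenly mixed, with 4 keeping and 1 lacking array among wild-type hearts and 1 keeping and 3 lacking arrays among knockout hearts. Only 1 of the 9 arrays was from ZT0. WT hearts were wildtype C57Bl6J at ZT0 (lights on) or ZT12 (lights off), and KO hearts lacked Rev-erb alpha and were taken at ZT12. The labels used here give no strain for the knockout mice, no age, and no account of how the allele was made or of how the heart was trimmed. All hearts were perfused on a Langendorff apparatus, which feeds an isolated heart backwards through the aorta. Each was left to settle for 20 min, had its pump stopped for 20 min and was perfused again for 20 min before it was frozen. RNA came from heart tissue, so fewer atrial cells and less RNA per atrial cell cannot be told apart.

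Atria and ventricles of the adult mouse heart use different versions of the contractile proteins. Myl7 and Myl4 encode the regulatory and essential myosin light chains of atrial muscle, where the ventricle uses Myl2 and Myl3. Sln encodes sarcolipin, a small inhibitor of the calcium pump SERCA in atrial muscle. Bmp10 encodes a secreted growth factor that, in the adult mouse heart, is made mainly by right atrial muscle.

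The transcript Mir690 was among the genes that differed between the classes, and its place in the genome ties it to another of them. The hairpin lies inside the span of Fgf12, on the same strand, in RefSeq's annotation of GRCm38.p6. Its mature product, from RefSeq, is at chr16:28599940-28599961 on the minus strand and is printed with the seed, bases 2 to 8, in capitals.
mmu-miR-690: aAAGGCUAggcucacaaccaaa
The array probes read RNA from this locus, and mature miRNA was not told apart from its precursor or from Fgf12 pre-mRNA.

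The 250 bases before the RefSeq start site are shown for the genes that made the classes, Bmp10 and Myl7, and for Nppa and Mybphl, atrial genes that differed between them. The builds and strands are GRCm38.p6, with Myl7 on the minus strand at chr11:5898783-5899032, Bmp10 on the plus strand at chr6:87428744-87428993, Nppa on the plus strand at chr4:148000472-148000721 and Mybphl on the plus strand at chr3:108364661-108364910. Capitals mark matches on either strand to short forms of motifs of cardiac factors and to the TATA box.
Bmp10: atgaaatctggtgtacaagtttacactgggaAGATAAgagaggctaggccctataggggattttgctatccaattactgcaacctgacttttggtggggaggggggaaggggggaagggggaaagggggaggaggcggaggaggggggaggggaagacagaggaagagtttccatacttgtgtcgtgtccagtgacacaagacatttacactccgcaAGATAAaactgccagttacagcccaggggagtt
Myl7: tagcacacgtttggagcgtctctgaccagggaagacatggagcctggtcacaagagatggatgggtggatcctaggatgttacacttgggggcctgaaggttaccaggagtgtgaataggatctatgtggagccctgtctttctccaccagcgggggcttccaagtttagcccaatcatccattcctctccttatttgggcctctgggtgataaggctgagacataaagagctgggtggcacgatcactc
Nppa: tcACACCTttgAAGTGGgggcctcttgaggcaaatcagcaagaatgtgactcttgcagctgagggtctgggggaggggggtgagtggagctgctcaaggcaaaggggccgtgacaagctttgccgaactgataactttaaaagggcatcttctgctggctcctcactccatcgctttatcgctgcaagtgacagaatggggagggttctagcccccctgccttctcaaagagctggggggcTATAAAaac
Mybphl: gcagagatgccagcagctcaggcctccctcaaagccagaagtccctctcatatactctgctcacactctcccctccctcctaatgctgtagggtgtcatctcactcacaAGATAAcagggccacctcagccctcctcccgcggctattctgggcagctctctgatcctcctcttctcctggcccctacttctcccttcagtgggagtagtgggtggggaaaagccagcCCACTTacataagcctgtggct
Letters searched for GATA factors were AGATAA, present in 9.99% of 32851 promoter windows of the same length. T-box factors were searched as AGGTGT, present in 11.8% of these windows, and nuclear receptors such as NR2F2 as AGGTCA, present in 14.0%. NKX2-5 was searched as AAGTGG, present in 14.1%, and the TATA box as TATAAA, present in 12.4%. The motif MEF2 was present in 0.508%. Bmp10 held 2 GATA matches, Mybphl held 1 GATA and 1 NKX2-5 match, and Nppa held 1 match each for T-box, NKX2-5 and TATA. The matches marked here did not overlap each other. In the windows of Myl7 and Stard10 none of these letters were found, and Myl4 held 1 NKX2-5 match. These are matches of letters, and no binding was measured. Other forms of the motifs were not searched, so an unmarked window may still hold one.

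All values are log2 RMA values, on which the medians of the 19 arrays lay between 3.25 and 3.32. The 9 arrays correlated with each other at 0.972 to 0.985 over all probe sets. As a check of labels, Arntl, a clock gene repressed by Rev-erb alpha, was at 6.28 to 6.77 in the 5 KO arrays and at 3.72 to 4.31 in the 7 WT ZT12 arrays. Nr1d1, the gene of Rev-erb alpha, was at 6.30 to 6.51 and at 6.46 to 7.28 in the same groups. Whether its probes lie in the deleted part is not given in the sources used here, so its level checks nothing.

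Bmp10 was at 3.86, 3.68, 3.42, 3.70 and 4.15 in the keeping arrays, in the order given above. In the lacking arrays it was at 3.47, 3.20, 2.66 and 3.47, again in the order above. These ranges overlapped only through WT ZT12 replicate 4, at 3.42, with means of 3.76 in keeping and 3.20 in lacking arrays. Both lay near the array medians, while the Bmp10-high arrays ran from 9.01 to 10.30. The highest value below the threshold was 4.15 and the lowest above it 9.01, so no array was close to 6.5. Myl7 was at 8.65, 7.49, 8.73, 9.10 and 9.30 in the keeping arrays and at 5.29, 4.05, 5.32 and 4.24 in the lacking arrays. The values nearest to the threshold were 5.32 below and 7.49 above it, and the keeping arrays reached into the range of the Bmp10-high arrays, which was 8.31 to 9.70.

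Sln and Myl4 had been named as markers of this division with earlier results known, so their difference between keeping and lacking arrays is a description, and their place among the genes called below supports nothing. Sln was at 9.66, 8.48, 9.48, 9.87 and 10.44 in the keeping arrays and at 5.09, 4.43, 5.80 and 3.64 in the lacking arrays. Every keeping array was above every lacking array, and the difference between the classes with genotype as a covariate was 5.02 (SE 0.53). Myl4 was at 5.995, 4.87, 5.67, 5.90 and 6.33 in the keeping arrays. Its lacking arrays were at 3.89, 4.53, 3.99 and 4.27, a difference of 1.89 (SE 0.26). WT ZT12 replicate 3 was the lowest keeping array for Myl7, Sln and Myl4. Among the lacking arrays, WT ZT12 replicate 5 and KO ZT12 replicate 4 had the higher Myl7 and Sln, while KO ZT12 replicate 2 had the highest Myl4.

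**Figure D1:**
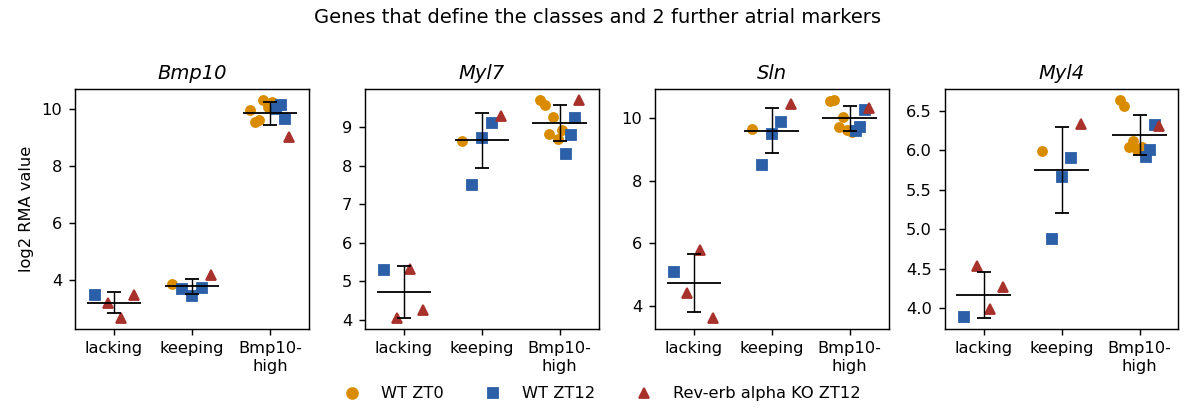
Log2 RMA values (vertical axis) of Bmp10, Myl7, Sln and Myl4 in the 4 lacking, 5 keeping and 10 Bmp10-high arrays, 1 point per heart; bars are class means with SD, and colour and shape give genotype and time. In Bmp10 keeping and lacking arrays are all at 4.15 or less, with most keeping arrays above the lacking arrays. In the other genes the keeping arrays lie near the Bmp10-high arrays, with WT ZT12 replicate 3 the lowest of them.

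The keeping and lacking arrays were compared over 22178 genes, leaving out Myl7 and Bmp10, in a linear model with genotype as a covariate (limma, two-sided, Benjamini-Hochberg over all genes; called at an adjusted p under 0.05). Because the classes were made from these arrays, an adjusted p here describes how far a gene went with Myl7 in these 9 hearts. In keeping arrays 9 genes were higher (0.0406% of genes tested) and 0 were lower; at an unadjusted p under 0.05 the limma counts were 653 higher (2.94%) and 610 lower (2.75%). The 9 genes were Nppa, Sln, Rxfp1, Mybphl, Fgf12, Mir690, Mlana, Stard10 and Myl4, of which 7 remain when the markers Sln and Myl4 are set aside. For each of the 9 every keeping array lay above every lacking array, as was so for 0.911% of all genes tested, with 0.631% the other way. The median difference over all genes was -0.0021 and the median SE 0.14.

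Nppa encodes atrial natriuretic peptide, the hormone stored in atrial granules. It was at 12.52, 12.24, 12.44, 12.53 and 12.65 in the keeping arrays and at 11.23, 10.99, 11.21 and 11.33 in the lacking arrays. It was thus bright in both classes without overlap, and rose by 1.33 (SE 0.13), or 2.52-fold (limma adjusted p = 0.0152). The keeping arrays lay close to the highest value on any array, 12.88, and whether signal was compressed there was not tested. Mybphl encodes a relative of cardiac myosin-binding protein C found in atria and the conduction system. Its keeping arrays were at 6.65, 5.41, 6.68, 6.69 and 6.89 and its lacking arrays at 3.71, 2.495, 3.495 and 3.26. The difference was 3.21 (SE 0.38; limma adjusted p = 0.0261). Lacking arrays lay around the median of all values, 3.27, where signal and background were not told apart, so no fold is given; the same holds for Fgf12, Mir690, Rxfp1 and Mlana. Stard10, a lipid transfer protein gene, was at 7.47, 6.84, 7.22, 7.28 and 7.77 in keeping arrays. In lacking arrays it was at 6.01, 6.13, 6.497 and 5.91, a difference of 1.38 (SE 0.19; limma adjusted p = 0.0440).

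Fgf12 encodes an intracellular FGF-like protein that binds voltage-gated sodium channels. It was at 6.37, 5.03, 6.07, 6.01 and 6.53 in keeping arrays and at 3.50, 3.66, 3.77 and 2.90 in lacking arrays, a difference of 2.72 (SE 0.33; limma adjusted p = 0.0261). Mir690, within the span of Fgf12, was at 4.47, 3.24, 4.25, 4.15 and 4.34 against 1.98, 1.41, 2.08 and 1.72, a difference of 2.32 (SE 0.29; limma adjusted p = 0.0270). Both transcripts of the locus were thus higher in all 5 keeping arrays, and in lacking arrays Mir690 lay below the median of all probe sets. Rxfp1 encodes the relaxin receptor. Its values were 4.42, 3.48, 4.26, 4.28 and 4.63 in keeping arrays and 2.29, 2.498, 2.69 and 2.47 in lacking arrays, a difference of 1.95 (SE 0.21; limma adjusted p = 0.0153). Mlana, which encodes a melanosome protein of pigment cells, was at 4.32, 4.14, 3.97, 4.41 and 5.01 in keeping arrays and at 3.14, 3.49, 3.60 and 3.94 in lacking arrays. Its difference was 1.20 (SE 0.15; limma adjusted p = 0.0280), and the classes came closest here, at 3.97 and 3.94. Without the genotype covariate the differences of Mlana (0.83), Stard10 (1.18) and Myl4 (1.58) did not pass (limma adjusted p = 0.701, 0.0557 and 0.0833).

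The keeping arrays differed among themselves. WT ZT12 replicate 3 was the lowest keeping array for 8 of the 9 called genes and KO ZT12 replicate 3 the highest for 8 of the 9. The Bmp10-high range was reached by 4 of the 5 keeping arrays for Rxfp1, Mybphl, Fgf12 and Mir690, by 3 for Sln, by 2 for Nppa and Myl4, and by 1 for Mlana and Stard10. No lacking array reached it for any of the 9. These genes were called because lacking arrays were lower, so that side supports nothing. The same counts were not made over all genes.

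**Figure D2:**
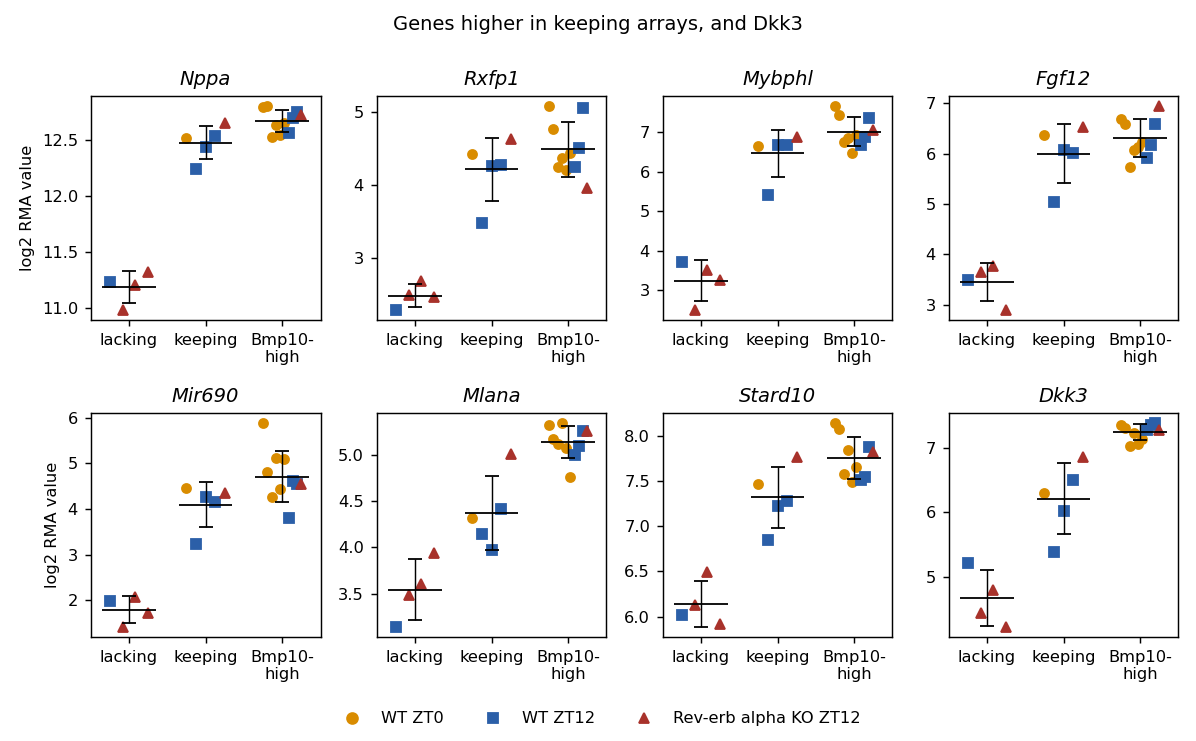
Log2 RMA values (vertical axes) of 7 genes called higher in keeping arrays and of Dkk3, which was not called, in lacking, keeping and Bmp10-high arrays, 1 point per heart; bars are class means with SD. In each of the panels the lacking arrays lie lowest, and WT ZT12 replicate 3 or 4 is the lowest keeping array.

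Within genotypes the differences had the same sign. It was fixed by the lack of overlap between the classes, so the shared sign adds no support. Nppa differed by 1.20 among wild-type arrays and by 1.47 among knockout arrays, Mybphl by 2.64 and 3.81, Fgf12 by 2.37 and 3.09, Rxfp1 by 1.82 and 2.08, Mlana by 1.08 and 1.34 and Stard10 by 1.19 and 1.59. Each of these rests on a single array on its rarer side. A test of whether the difference itself differed between genotypes called 0 genes by limma, with 1390 (6.27%) at an unadjusted p under 0.05. The number of calls depended on single arrays: it was 0 without WT ZT12 replicate 5, WT ZT12 replicate 6 or KO ZT12 replicate 3 (limma; 778, 600 and 602 genes higher at an unadjusted p under 0.05). It was 3 without WT ZT0 replicate 1 or KO ZT12 replicate 2, 4 without WT ZT12 replicate 4, 2 without KO ZT12 replicate 4, 5 without KO ZT12 replicate 5 and 11 without WT ZT12 replicate 3. For each of the 9 genes the difference stayed above 0 in every one of these fits. That sign was fixed beforehand, since every keeping array lay above every lacking array, so it adds no support.

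The relation of the 9 called genes to Myl7 was then examined in the 10 Bmp10-high arrays, which had no part in the comparison. Myl7 ran from 8.31 to 9.70 there. These arrays were 6 from WT ZT0, 3 from WT ZT12 and 1 from KO hearts, and the 9 relations were tested by two-sided permutation, exact for the 6 WT ZT0 arrays and with 100000 resamples for all 10. Over all 10 arrays, Pearson's r was highest for Sln (r = 0.917, permutation p = 0.00034, adjusted 0.00153; rho = 0.806, permutation p = 0.00713, adjusted 0.0168). Stard10 followed (r = 0.896, permutation p = 0.00073, adjusted 0.00219; rho = 0.855, permutation p = 0.00294, adjusted 0.0132). Myl4 was close to it (r = 0.890, permutation p = 0.00023, adjusted 0.00153; rho = 0.900, permutation p = 0.00089, adjusted 0.00801). Fgf12 (r = 0.833, permutation p = 0.00352, adjusted 0.00792; rho = 0.758, permutation p = 0.0152, adjusted 0.0228) and Nppa (r = 0.814, permutation p = 0.00591, adjusted 0.00886; rho = 0.709, permutation p = 0.0272, adjusted 0.0350) came next. Mybphl was at r = 0.804 (permutation p = 0.00558, adjusted 0.00886; rho = 0.806, permutation p = 0.00746, adjusted 0.0168). These 6 genes passed after adjustment by both measures. The share of all genes tested with relations to Myl7 this close was not counted, so how unusual this is among all genes is not known.

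Mir690 and Mlana each passed by 1 measure only. Mir690 had r = 0.674 (permutation p = 0.0289, adjusted 0.0371) and rho = 0.600 (permutation p = 0.0752, adjusted 0.0846), and Mlana had r = 0.632 (permutation p = 0.0448, adjusted 0.0505) and rho = 0.770 (permutation p = 0.0125, adjusted 0.0225). Rxfp1 did not pass (r = 0.386, permutation p = 0.266, adjusted 0.266; rho = 0.297, permutation p = 0.408, adjusted 0.408); the KO array had the lowest Rxfp1 of these arrays, 3.96, with a Myl7 at the top of their range. Without the 2 arrays farthest from the median of Myl7, r was 0.960 for Sln, 0.997 for Stard10, 0.945 for Myl4, 0.759 for Fgf12, 0.825 for Nppa, 0.903 for Mybphl, 0.706 for Mir690, 0.577 for Mlana and 0.782 for Rxfp1. Within the 6 WT ZT0 arrays r was 0.967 for Sln, 0.999 for Stard10, 0.940 for Myl4, 0.942 for Mybphl, 0.934 for Nppa and 0.917 for Rxfp1 (exact permutation, adjusted p 0.00625 to 0.0229). For Stard10 and Myl4 the exact p was 0.00139, the smallest that 6 arrays can give. There r was 0.804 for Fgf12, 0.743 for Mir690 and 0.585 for Mlana, and these did not pass (exact permutation, adjusted p = 0.0821, 0.109 and 0.218). The other groups held too few of these arrays for a value of their own. Over all genes tested the median r over the Bmp10-high arrays was -0.010, and 12.6% of genes had an r of 0.386 or more. That is the r of Rxfp1, the lowest of the called genes, and the share at higher r was not counted.

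**Figure D3:**
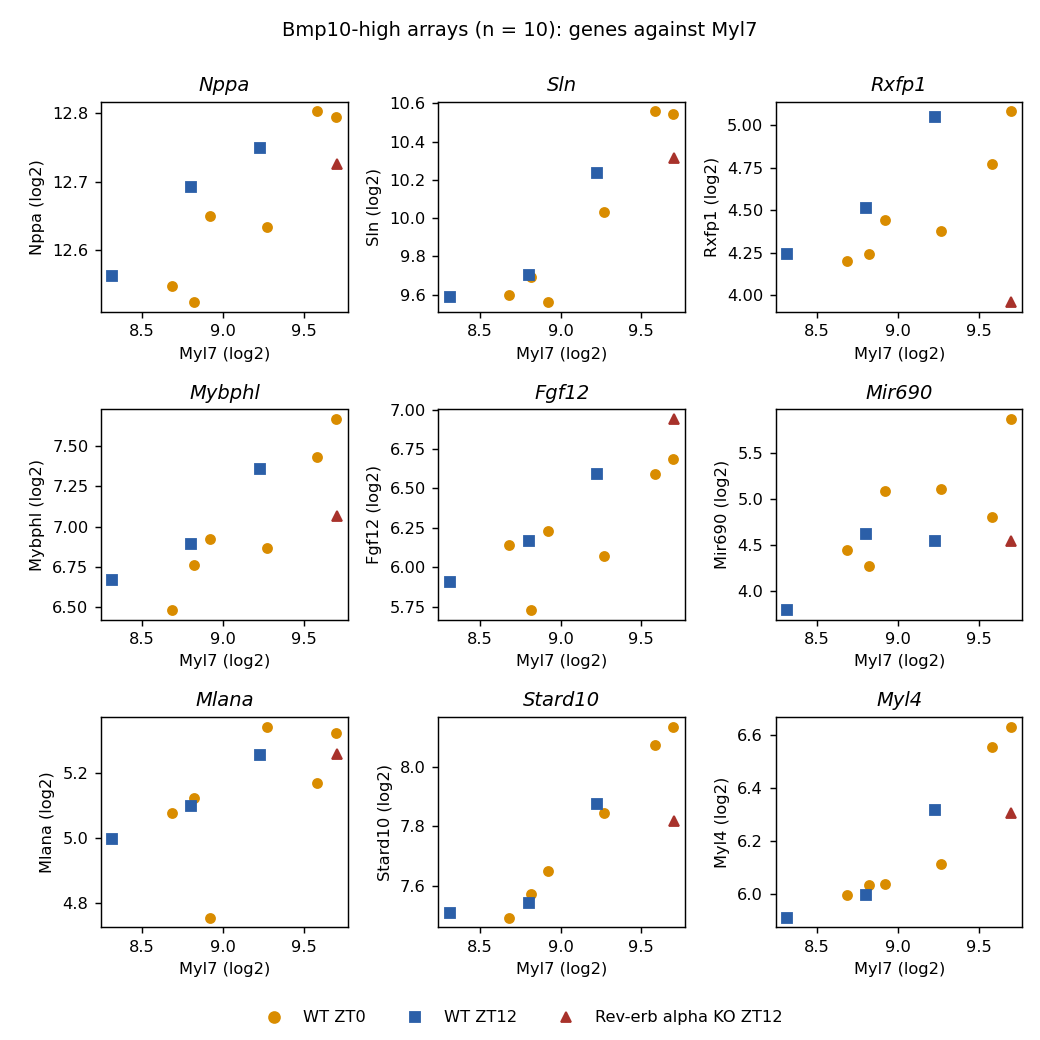
Log2 RMA values of the 9 called genes (vertical axes) against Myl7 (horizontal axes) in the 10 Bmp10-high arrays, 1 point per heart, with colour and shape for genotype and time. Stard10, Sln and Myl4 follow Myl7 most closely, with r of 0.890 to 0.917, and the KO array departs for Rxfp1.

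The fixed list of atrial muscle genes held 18 measured genes besides Myl7. Of these, 6 rose (the markers Sln and Myl4, and Nppa, Mybphl, Fgf12 and Stard10), 0 fell and 12 did not pass, where 0.0406% of all genes tested rose. The median difference was 0.84 against -0.0021 over all genes, and 0.55 without the genotype covariate. The list was chosen with earlier results of these arrays known, so its count is not independent support. In 9 of the 18 genes every keeping array was higher than every lacking array, against 0.911% of all genes tested. Besides the 6 that rose, these were Dkk3, Sbk3 and Kcnj3. Dkk3, a secreted glycoprotein gene, was at 6.30, 5.38, 6.03, 6.499 and 6.86 in keeping arrays against 5.21, 4.43, 4.80 and 4.21 in lacking arrays, a difference of 1.59 (SE 0.34; limma adjusted p = 0.374). Sbk3, a kinase gene, was at a difference of 1.77 (SE 0.35; limma adjusted p = 0.267). For Kcnj3, a subunit of the acetylcholine-activated potassium channel of atrial muscle, the difference was 0.75 (SE 0.14; limma adjusted p = 0.238). Tbx5, a T-box factor of atria and conduction tissue, was at 0.92 (SE 0.19; limma adjusted p = 0.337), and Sbk2, a related kinase gene, at 0.61 (SE 0.22; limma adjusted p = 0.844).

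Other genes of the list lay near 0, among them the nuclear receptor genes Nr2f1 (-0.15) and Nr2f2 (0.15), the potassium channel gene Kcna5 (-0.086), the calcium channel subunit gene Cacna2d2 (0.26), the gap junction gene Gja5 (0.24) and Clu (0.18), as log2 differences. None of these passed (limma adjusted p 0.901 to 0.999). In Kcnj5, the partner subunit of Kcnj3, the difference was 0.24 (limma adjusted p = 0.912). The mean of the list ran from 6.03 to 6.81 in keeping arrays, from 5.28 to 5.53 in lacking arrays and from 6.59 to 7.08 in Bmp10-high arrays.

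Among 15 measured genes of granules and secretion, only Nppa rose, 0 fell and 14 did not pass, with a median of 0.0002, where 0.0406% of all genes tested rose. Pam encodes the enzyme that amidates peptides and is abundant in atrial granules. It was at 10.69, 10.32, 10.41, 10.64 and 10.97 in keeping arrays and at 10.09, 9.88, 9.92 and 9.97 in lacking arrays. These did not overlap, but the difference of 0.73 (SE 0.15) did not pass (limma adjusted p = 0.337). Nppb, the gene of the related brain natriuretic peptide, was at 10.58 ± 0.41 in keeping arrays (SD, n = 5) and at 10.07 ± 0.73 in lacking arrays (SD, n = 4), a difference of 0.13 in the model (limma adjusted p = 0.999). The processing enzyme gene Corin was at -0.046 and the granin genes Chga and Chgb at -0.036 and -0.10, none of which passed (limma adjusted p = 0.999).

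Sinus node and conduction genes showed no call among 15 measured (median -0.0195), with the pacemaker channel gene Hcn4 at -0.38, the node factor genes Shox2 at 0.11 and Tbx3 at -0.096, and Cpne5 at 0.22. Ventricular muscle genes showed none among 12 (median -0.19), with limma adjusted p of 0.866 or more. Kcnd2, a subunit gene of the transient outward potassium channel, was lower without overlap, at 7.36 to 7.57 in keeping and 7.60 to 7.96 in lacking arrays, a difference of -0.27 (SE 0.13; limma adjusted p = 0.894). There Myl2 was at 0.17 and Myl3 at 0.12, with Irx4 at -0.22 and Hey2 at -0.34, and 4 of the 12 differences were above 0. The 17 genes of cardiomyocytes of both chambers lay between -0.0715 and 0.0932 (median -0.0204), with 0 called. Over all genes tested 0.0406% were called higher and 0 lower, so lists of this size would mostly hold no call.

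**Figure D4:**
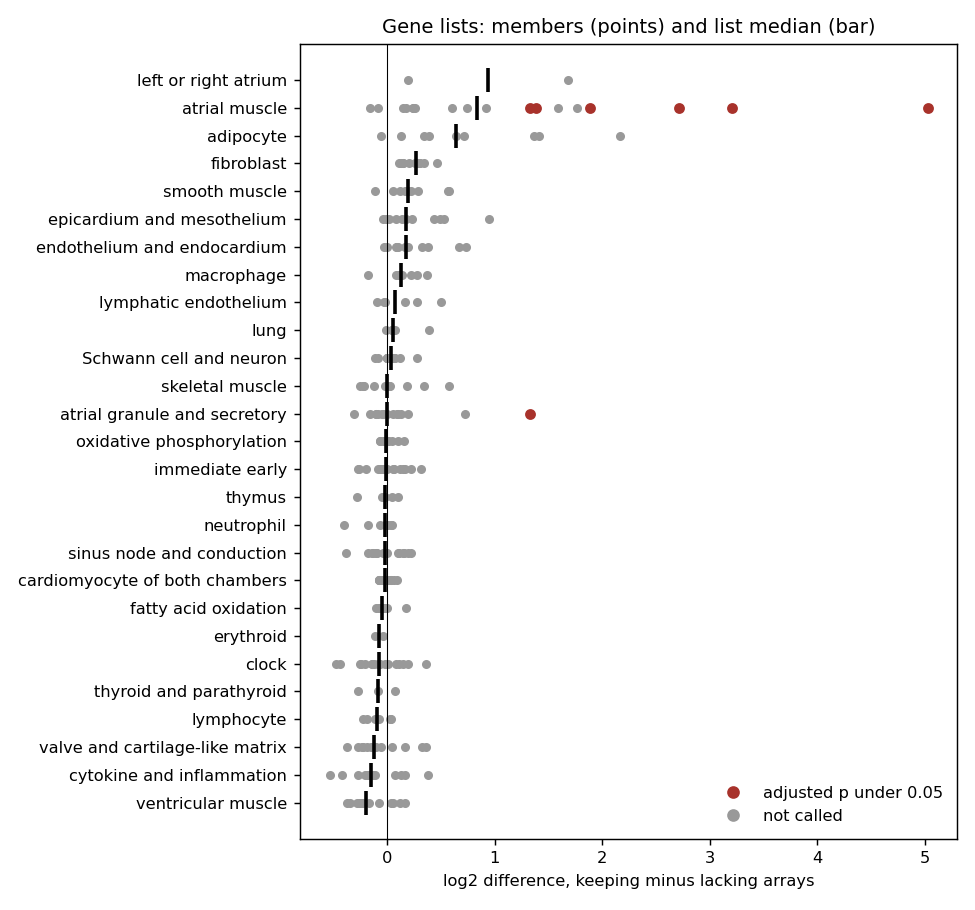
Log2 differences, keeping minus lacking arrays with genotype as a covariate (horizontal axis), of the measured members of each fixed gene list (rows); points are genes, red where called, and bars are list medians. Called genes appear in the lists of atrial muscle and of granules, which share Nppa.

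Markers of other cell types were read on the same arrays, and no member of their lists was called. With 0.0406% of all genes tested called higher and 0 lower, short lists would mostly hold no call. Adipocyte genes had a median of 0.64 with 8 of 9 above 0, led by Car3 at 2.16 (SE 0.57; limma adjusted p = 0.538) and Retn at 1.37 (SE 0.30; limma adjusted p = 0.391). Their list means overlapped, at 4.78 to 6.22 in keeping and 4.79 to 5.37 in lacking arrays. Fibroblast genes had a median of 0.27 with 12 of 12 above 0, smooth muscle genes 0.20 with 8 of 9, and endothelial and endocardial genes 0.18 with 11 of 12. Fibroblast list means were 7.21 to 7.70 and 6.85 to 7.47, smooth muscle 5.35 to 5.95 and 5.28 to 5.58, and endothelial 6.72 to 7.13 and 6.59 to 6.93 in keeping and lacking arrays, so each overlapped. Epicardial and mesothelial genes had a median of 0.18, with Upk3b at 0.95 (SE 0.29; limma adjusted p = 0.655). The part of these tissues in the differences described above was not tested.

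Macrophage genes had a median of 0.13, lymphatic endothelium 0.073, valve and cartilage-like matrix -0.12, Schwann cell and neuron 0.035, neutrophil -0.017 and lymphocyte -0.094. Markers of neighbouring organs were low in each class: list means were 2.77 to 3.01 and 2.74 to 2.88 for lung, 2.66 to 2.95 and 2.74 to 2.98 for thymus, and 2.63 to 2.78 and 2.56 to 2.88 for thyroid and parathyroid in keeping and lacking arrays. Thymus, thyroid, skeletal muscle and erythroid lists had medians of -0.0155, -0.0786, 0.001 and -0.0692, and lung 0.054. Clock genes had a median of -0.076 with 0 of 18 called, immediate early genes -0.012 with 0 of 16, and cytokine and inflammation genes -0.15 with 0 of 12. Genes of oxidative phosphorylation (-0.0098) and fatty acid oxidation (-0.0465) had 0 called of 12 and 11. The share called over all genes tested was 0.0406% higher and 0 lower.

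The keeping arrays were also compared with the 10 Bmp10-high arrays, to find what other transcripts were missing along with Bmp10. This used all 19 arrays in 1 limma model with the 3 classes and the study's groups, and it shares the keeping arrays with the comparison above. In Bmp10-high arrays 6 genes were higher (0.0271% of 22178) and 0 lower, and at an unadjusted p under 0.05 the limma counts were 683 (3.08%) and 533 (2.4%). Hamp encodes hepcidin, the peptide regulator of iron export. It was at 2.61, 2.98, 3.59, 5.55 and 3.36 in keeping arrays and had a lowest, median and highest value of 5.74, 6.36 and 7.21 in Bmp10-high arrays. The classes did not overlap, WT ZT12 replicate 6 came closest, and the difference was 3.15 (SE 0.32; limma adjusted p = 6.88e-05). No fold is given, since most keeping arrays lay around the median of all values. Hamp was lower again in lacking arrays, at 1.93, 1.35, 1.68 and 2.21, but the difference from keeping arrays, 1.68 (SE 0.59), did not pass (limma adjusted p = 0.792). Hamp and its copy Hamp2 were the measured genes of the short list of left or right atrial genes besides Bmp10. Hamp2 was at 0.20 in keeping minus lacking arrays (SE 0.19, limma adjusted p = 0.998). In Bmp10-high minus keeping arrays it was at -0.10 (SE 0.11, limma adjusted p = 0.993). Its values were 1.20 to 1.74 in keeping and 1.26 to 1.88 in Bmp10-high arrays, so its probes did not follow Hamp. Whether the probes of Hamp also read Hamp2 is not known.

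Cacna2d2 encodes an auxiliary subunit of voltage-gated calcium channels. It was at 4.26, 4.21, 4.16, 4.16 and 4.18 in keeping arrays and at 4.94, 5.30 and 5.47 (lowest, median, highest) in Bmp10-high arrays, a difference of 1.11 (SE 0.096; limma adjusted p = 1.10e-05). Its keeping and lacking arrays overlapped, the latter lying between 3.65 and 4.20. Cxcl13, the gene of a chemokine for B cells, was at 4.22, 4.47, 4.002, 4.37 and 4.88 in keeping arrays and at 6.001, 6.67 and 8.94 in Bmp10-high arrays (lowest, median, highest), a difference of 2.61 (SE 0.37; limma adjusted p = 0.00692). Vsig4, a complement receptor gene of resident macrophages, was at 2.87 to 4.14 against 4.27 to 5.71, a difference of 1.60 (SE 0.23; limma adjusted p = 0.00692). Neither overlapped between these classes, while for both the keeping and lacking ranges overlapped. The share of all genes without overlap between keeping and Bmp10-high arrays was not counted. Macrophage list means were 5.97 to 6.27 in keeping and 5.88 to 6.44 in Bmp10-high arrays. Of its 8 genes 0 were called, where 0.0271% of all genes tested were higher and 0 lower.

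Mlana was called in both comparisons. It was at 4.76 to 5.34 in Bmp10-high arrays, a difference of 0.78 from keeping arrays (SE 0.12; limma adjusted p = 0.0141), with KO ZT12 replicate 3, at 5.01, inside that range. Without a covariate this call was lost too (0.77; limma adjusted p = 0.0577). Slc39a8, a zinc and manganese transporter gene, differed by 0.68 (SE 0.11; limma adjusted p = 0.0234), and its classes overlapped, at 3.565 to 4.61 and 4.43 to 5.14. Its call was also lost without a covariate (0.71; limma adjusted p = 0.106). The calls for Cxcl13, Vsig4, Mlana and Slc39a8 were lost without WT ZT0 replicate 1 (limma adjusted p 0.0945 to 0.136), when 3 genes were called, namely Cacna2d2, Hamp and Id2. Those for Mlana and Slc39a8 were lost without WT ZT12 replicate 3 as well, with 4 called. Atrial muscle genes and Rxfp1, which rose in keeping over lacking arrays, had these differences here, which were not tested against those above: Sln by 0.38 (SE 0.33), Myl4 by 0.38 (SE 0.17), Nppa by 0.19 (SE 0.082), Mybphl by 0.52 (SE 0.26), Fgf12 by 0.31 (SE 0.22), Stard10 by 0.38 (SE 0.13) and Rxfp1 by 0.23 (SE 0.20), all toward Bmp10-high arrays and none past the test (limma adjusted p 0.769 to 0.988). The median over the atrial list was 0.31. Dkk3 was higher by 1.06 in Bmp10-high arrays (SE 0.195, limma adjusted p = 0.0808) but was not called. Its keeping arrays, up to 6.86, did not reach the lowest Bmp10-high array at 7.04.

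**Figure D5:**
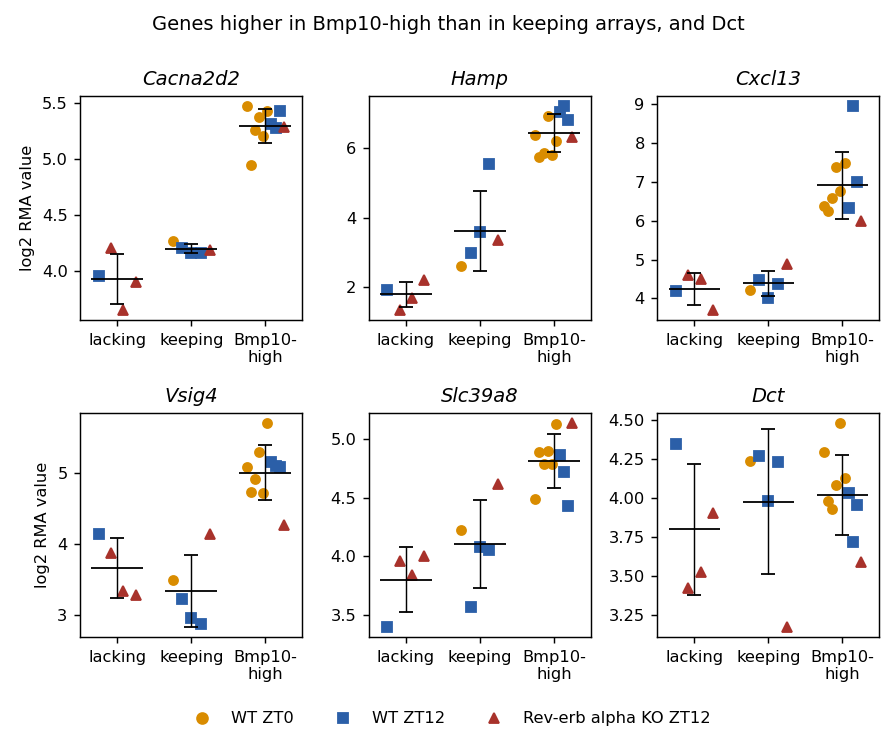
Log2 RMA values (vertical axes) of Cacna2d2, Hamp, Cxcl13, Vsig4 and Slc39a8, called higher in Bmp10-high than in keeping arrays, and of the pigment cell gene Dct, in the 3 classes, 1 point per heart; bars are class means with SD. Keeping arrays lie near lacking arrays for Cacna2d2, Cxcl13 and Vsig4 and between the other classes for Hamp, while Dct overlaps in all classes.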

How the data were processed

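Transcripts of 19 mouse hearts were measured on Affymetrix arrays from 300 ng of RNA per heart, 1 array each. Replicates are called biological in the labels, and p-values measure the spread between these hearts. The values deposited by the authors are log2 probe set summaries made with RMA, per the submitters' processing notes; the log2 scale was read from the range of 0.21 to 12.88, and the software version is not given in the sources used. Of 41345 probe sets, 23521 listed 1 gene in the platform annotation, 1814 several and 16010 none; only the first kind was used. Entrez identifiers of 23328 matched a RefSeq table of GRCm38.p6, which changed 0 symbols. A gene was represented by its probe set of highest mean (1082 of 22180 genes had several). RMA as commonly run includes quantile normalization, which holds array distributions alike, and folds of dim genes are understated.

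Arrays were classed by Bmp10 and Myl7 as described. The classes, comparisons, lists and members were chosen with earlier results of these data known. Fits used limma 3.58.1 in R 4.3.3, lmFit and eBayes without trend; permutations used Python 3.11.15 with scipy 1.17.1. The relation to Myl7 within Bmp10-high arrays was added after the calls were seen.

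Genes were named by a rule: the 12 largest rises and falls among called genes, all members of the atrial muscle, left or right atrium, granule, sinus node and ventricular lists, up to 4 called or else the 2 of smallest p per other list, and the 5 largest changes against Bmp10-high arrays. Mir690, Slc39a8, Id2, Podn, Tmem163, Gpm6a, Bmp3, Gm4553, Ces2d-ps and the pigment genes other than Mlana were named after their values were seen. On simulated data with the spread of the 9 arrays among 22178 genes, differences of 0.5, 1, 2 and 4 were recovered in 10%, 76%, 100% and 100% of 50 genes each, with 5.92% of calls false. The 50 genes changed at each size outnumber the 9 genes called higher in keeping arrays, which eases the adjusted threshold. These shares may thus be too high for the data, where Car3, at 2.16 (SE 0.57), was not called. The number of arrays limits the precision. Arrays that share a replicate number gave no sign of pairing (consensus correlation -0.0864). Alternatives covered covariates, arrays, normalization, probe sets, dim genes, variance model, replicate block, thresholds and each array left out.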

Additional observations from a re-analysis of the deposited data

Results flagged for a closer look

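Among 22 genes, 66 sets of values (each gene in each class) were examined for an array far from the rest, and 4 had one; chance marks about 5% of sets. Mybphl was at 5.41 in WT ZT12 replicate 3, against 6.65 or more in the other keeping arrays. Mir690 was at 3.24 in the same array, against 4.15 or more. Cacna2d2 was at 4.94 in WT ZT0 replicate 3, below the other Bmp10-high arrays, which began at 5.21. Cxcl13 was at 8.94 in WT ZT12 replicate 2, above the other Bmp10-high arrays, which ended at 7.49.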

How the results depend on the processing

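Of the 9 genes called higher in keeping arrays, Nppa and Rxfp1 were called in all 14 alternatives other than leaving out each array in turn. Sln was called in 13 of the 14 (lost with trend and robust variances). These 14 are not separate checks. The settings with other thresholds chose the same arrays and repeated the main fit, so they could not change a call. With group as a covariate, or without the WT ZT0 array, 3 genes were called, Nppa, Rxfp1 and Sln (lowest limma adjusted p = 0.0496). Only 1 of the 9 arrays was from ZT0, so these settings gave the same result and count as 1 check. With all 19 arrays and 3 classes, 22 genes were higher, all 9 among them, and 2 were lower, Gm4553 and Ces2d-ps. Leaving out single arrays gave 0 to 11 genes higher, 0 lower, and a median of the atrial list of 0.77 to 0.87; with no covariate the median was 0.55. Thresholds of 6 or 7 for either gene chose the same arrays. Centring moved the median of all genes to -0.0081. Against Bmp10-high arrays the count of 6 became 15 with dim genes left out and 3 to 8 without single keeping arrays, while Cacna2d2 and Hamp were called in all 12 settings. With the replicate number as a random block the counts were 9 and 6, with an atrial median of 0.82, and no call changed. The cause of these shifts was not tested. In the simulation a difference of 0.5 was mostly missed at this number of arrays.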

Other observations

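Mlana rose in keeping over lacking arrays and again in Bmp10-high over keeping arrays, so other pigment cell genes, chosen after this was seen, were read on the same arrays. Dct was at 3.42 to 4.35 in lacking, 3.17 to 4.27 in keeping and 3.59 to 4.48 in Bmp10-high arrays. Tyr lay between 1.42 and 2.44, Tyrp1 between 2.22 and 2.85, Pmel between 3.20 and 3.98 and Slc45a2 between 2.5004 and 3.29 over all classes. The classes overlapped for each of these 5 genes.

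Several genes outside the lists had small p-values in keeping minus lacking arrays without passing the adjustment. Among them, named after their values were seen, was Podn, a matrix proteoglycan gene, at 0.87 (SE 0.14, limma adjusted p = 0.168). Tmem163, a zinc transporter gene, was at 1.51 (SE 0.26, limma adjusted p = 0.190). Gpm6a, a membrane glycoprotein gene, was at 1.10 (SE 0.20; limma adjusted p = 0.235), and Bmp3, a relative of Bmp10, at 1.16 (SE 0.23; limma adjusted p = 0.268). In the fit over all 19 arrays each of these 4 was called higher in keeping arrays. That fit holds the same 9 arrays, and other genes with smaller p-values than Bmp3 were not called in it. These calls therefore add no support.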
